A study of Mus musculus with 14 samples.

Results

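Interferon-stimulated genes are genes whose transcription rises when a cell senses interferon. The 9 genes described here, Isg15, Ifit1, Ifit2, Ifit3, Irf7, Irf1, Rsad2, Usp18 and Stat2, were taken by symbol from the 24411 genes counted in the bulk RNA of mouse kidneys, and all 9 were among the 14300 genes with enough reads to test. The kidneys came from male C57/B6 mice aged 8 weeks, with 4 libraries at day 0, 5 libraries at day 1 and 5 libraries at day 3 after renal ischemia/reperfusion injury (IRI), an injury in which the blood supply of the kidney is stopped and then restored. No genetic change and no agent other than the injury is named for any of these groups, and the handling of the day 0 mice is not given in the sources used here. The comparison asks how the kidney's interferon-stimulated transcripts stood before, 1 day after and 3 days after the injury. The labels do not say that each library came from a separate mouse, so the p-values measure only the spread between these libraries. In bulk RNA, fewer cells of a type and less RNA per cell cannot be told apart.

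Cells release type I interferons (IFN-α and IFN-β) on sensing foreign or misplaced nucleic acid, and T and NK cells release type II interferon (IFN-γ). Type I interferon signals through its receptor and the kinases JAK1 and TYK2 to a complex that holds STAT2 and IRF9, which binds a DNA element called the interferon-stimulated response element (ISRE), whereas IFN-γ acts mainly through the gamma-activated site (GAS). Of the 9 genes, Stat2 encodes a part of the first complex, Irf1 and Irf7 encode transcription factors that carry the response further, Isg15 encodes a ubiquitin-like protein that is joined to other proteins, Usp18 encodes the protease that removes ISG15 and also holds back the type I receptor, Rsad2 encodes the antiviral enzyme viperin, and Ifit1, Ifit2 and Ifit3 encode proteins that bind foreign RNA or each other.

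The promoters are shown first, as a description of the letters near the start of each member. In RefSeq promoter windows of GRCm38.p6, which run from 250 bases before to 50 bases after a gene's start, 8 of the 9 members had an entry and Usp18 had none. Searched on both strands, the core of the ISRE, GAAANNGAAA (TTTCNNTTTC on the other strand), stood in the windows of 5 of those 8 members, Isg15, Ifit1, Ifit3, Rsad2 and Stat2, and in those of 3.99% of all 27025 genes with a window. The GAS, TTCNNNGAA, stood in the windows of Irf1 and Ifit2 and of 9.55% of all genes, and Irf7 had neither set of letters in its window. Matches may overlap each other, as the 3 ISRE cores of Isg15 do. The bases before the start that hold the matches are printed from 5′ to 3′ on the strand of the gene, with the matched letters in capitals, for Isg15 (chr4:156200863-156200908, minus strand), Ifit1 (chr19:34640773-34640825, plus strand), Ifit3 (chr19:34583361-34583428, plus strand), Rsad2 (chr12:26456551-26456584, minus strand), Stat2 (chr10:128270264-128270297, plus strand), Irf1 (chr11:53769912-53769944, plus strand) and Ifit2 (chr19:34550444-34550473, plus strand).
Isg15: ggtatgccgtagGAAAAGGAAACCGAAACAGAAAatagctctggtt
Ifit1: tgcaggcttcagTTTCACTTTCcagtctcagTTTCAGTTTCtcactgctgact
Ifit3: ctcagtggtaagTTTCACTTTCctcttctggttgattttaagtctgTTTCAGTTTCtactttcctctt
Rsad2: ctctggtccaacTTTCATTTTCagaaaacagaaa
Stat2: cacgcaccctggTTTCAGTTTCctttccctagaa
Irf1: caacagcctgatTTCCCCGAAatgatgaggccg
Ifit2: catgggagcTTCCTGGAAgaatggataaaa

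Ifit1 and Ifit3 each held 2 separate ISRE cores, and Rsad2 and Stat2 held 1 each. A match of letters is a description of the sequence and not a measured binding site, and no binding was measured here. In the GENCODE M21 annotation of the same assembly the 3 Ifit genes lie in 1 cluster on chromosome 19, Ifit2 at chr19:34550694-34576419, Ifit3 at chr19:34583531-34588731 and Ifit1 at chr19:34640871-34650009, all on the plus strand. Isg15 lies at chr4:156199424-156200818 (minus strand), Rsad2 at chr12:26442746-26456452 (minus strand), Usp18 at chr6:121245906-121270917 (plus strand), Irf7 at chr7:141262706-141266481 (minus strand), Irf1 at chr11:53770014-53778374 (plus strand) and Stat2 at chr10:128270559-128292849 (plus strand). Irf7, Irf1 and Usp18 each overlap a gene on the opposite strand, and the reads used here were counted on 1 strand only.

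Each library held between 12485579 and 20476979 reads on genes, and values are given as CPM (counts scaled to a common library total) after TMM scaling. The names of the deposited libraries carry numbers with either 1 digit or 3 digits, and neither the labels nor the paper says what this difference marks. All 4 day 0 libraries have 1-digit numbers, as have replicates 3, 4 and 5 of day 1 and replicates 4 and 5 of day 3, whereas replicates 1 and 2 of day 1 and replicates 1, 2 and 3 of day 3 have 3-digit numbers. The number format therefore was followed for the members at both days and for the other lists at day 1, and where 3-digit libraries are set against day 0 the format and the day cannot be told apart. The markers of kidney tubule and podocyte were present in every library, with a summed level of between 3093 and 18913 CPM. A change was called where the adjusted p-value of edgeR's quasi-likelihood test over all 14300 genes was under 0.05, and log2 fold changes are given ± standard error (SE).

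**Figure D1:**
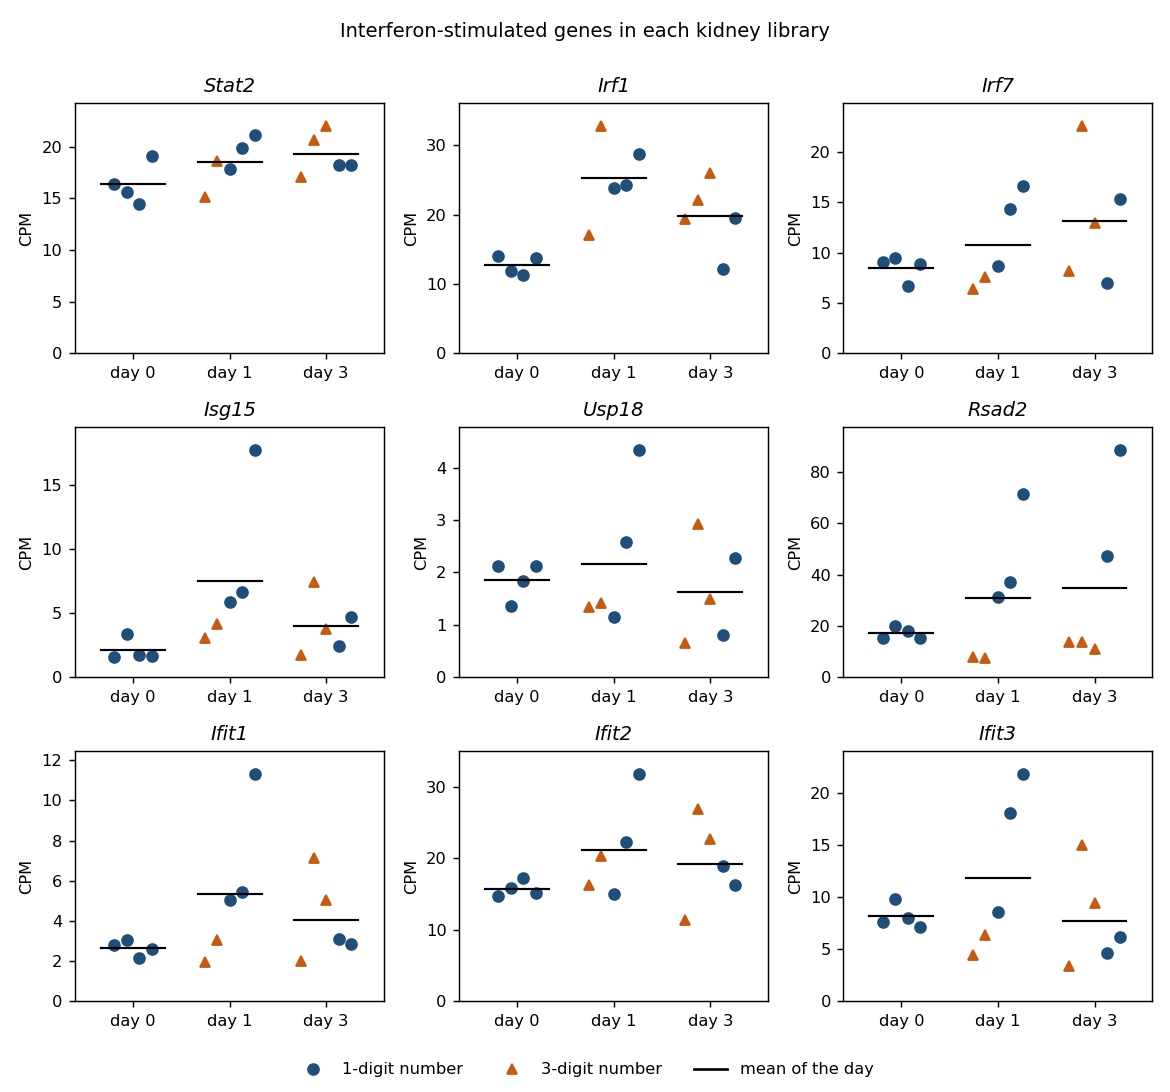
Level of each of the 9 interferon-stimulated genes in CPM (linear axes from 0) in every library at day 0, day 1 and day 3 after IRI, with 1-digit libraries as circles, 3-digit libraries as triangles and the mean of the day as a line. Rsad2 separates by number format at both later days, and day 1 replicate 5 is the highest library of its day in 8 of the 9 panels.

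The interferon-stimulated genes were expressed at low to moderate levels before the injury. Per kilobase of the longest coding transcript, Irf1 stood highest at day 0, with 5.95 ± 0.655 CPM per kilobase (SD, n = 4), and Usp18 and Ifit1 stood lowest, with 1.05 ± 0.205 and 1.00 ± 0.146. Between them came Ifit3 with 4.67 ± 0.672, Rsad2 with 4.51 ± 0.612, Ifit2 with 4.12 ± 0.288, Irf7 with 3.80 ± 0.567, Stat2 with 3.73 ± 0.450 and Isg15 with 2.77 ± 1.17 CPM per kilobase. From Ifit3 down to Isg15, and again for Usp18 and Ifit1, neighbours in this order differed by less than the larger of their SDs. At day 1 Irf1 was again first, with 11.9 ± 2.76 CPM per kilobase (SD, n = 5), and Isg15 had moved from the seventh to the second place with 9.94 ± 7.81. Rsad2 followed with 8.21 ± 6.93, Ifit3 with 6.80 ± 4.40, Ifit2 with 5.54 ± 1.75, Irf7 with 4.78 ± 1.99, Stat2 with 4.21 ± 0.515, Ifit1 with 2.02 ± 1.37 and Usp18 with 1.22 ± 0.756 CPM per kilobase, and only the step from Stat2 to Ifit1 was larger than the SDs of its neighbours. At day 3 Irf1, with 9.28 ± 2.36, and Rsad2, with 9.22 ± 8.89 CPM per kilobase (SD, n = 5), stood at the top, and the SD of Rsad2 was nearly as large as its mean. Irf7 followed with 5.89 ± 2.80, Isg15 with 5.30 ± 2.96, Ifit2 with 5.04 ± 1.57, Ifit3 with 4.44 ± 2.67, Stat2 with 4.38 ± 0.465, Ifit1 with 1.52 ± 0.781 and Usp18 with 0.921 ± 0.546, and here too only the step from Stat2 to Ifit1 exceeded the SDs of both neighbours. The order over whole days did not hold within the number formats. Rsad2 was second at day 1, with 12.3 ± 5.70 CPM per kilobase (n = 3), and first at day 3, with 18.0 ± 7.75 (n = 2), among 1-digit libraries. Among 3-digit libraries it was the seventh on both days, with 2.03 ± 0.0511 (n = 2) and 3.38 ± 0.443 (n = 3). Irf1 was first in the 3-digit libraries of both days, with 11.7 ± 5.21 and 10.5 ± 1.54, the third in the 1-digit libraries of day 1 (12 ± 1.26), after Isg15 (13.4 ± 8.80) and Rsad2, and second in those of day 3 (7.42 ± 2.44).

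Irf1 rose at both days, and it was the only transcription factor among the members to do so. Its level at day 0 was 14.1, 11.8, 11.2 and 13.7 CPM in replicates 1 to 4. At day 1 it was 17.1, 32.8, 23.8, 24.3 and 28.7 CPM in replicates 1 to 5, and at day 3 it was 19.4, 22.1, 25.9, 12.2 and 19.5 CPM. Every day 1 library stood above every day 0 library, and at day 3 only replicate 4 fell within the day 0 range. The log2 fold change was 0.99 ± 0.22 at day 1 (1.99-fold, adjusted p = 0.00293) and 0.64 ± 0.22 at day 3 (1.56-fold, adjusted p = 0.0346). The day 1 call held with each of the 14 libraries left out in turn, with adjusted p-values of between 0.00128 and 0.0124. The day 3 call was lost without any one of the 4 day 0 libraries or without replicate 1, 2 or 3 of day 3, with adjusted p-values of between 0.0526 and 0.0973, and with the number format as a term in the fit (adjusted p = 0.11).

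Irf1 was also the one member that rose at day 1 in both number formats. It rose by 1.01 ± 0.22 among 1-digit libraries of day 1 (adjusted p = 0.00153) and by 0.97 ± 0.24 among 3-digit ones (adjusted p = 0.00615). The formats themselves differed by -0.03 ± 0.26 (adjusted p = 0.934). The 3-digit value rested on replicate 2, since without it the value was 0.425 with an adjusted p of 0.226, and without replicate 1 it was 1.33 with an adjusted p of 0.00232. At day 3 it rose by 0.82 ± 0.22 in the 3-digit libraries (adjusted p = 0.0116), a call lost without replicate 3 (adjusted p = 0.0622), and stood 0.32 ± 0.25 above day 0 in the 1-digit libraries (adjusted p = 0.299).

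Irf7, the master regulator of type I interferon genes, did not pass the test at either day. It measured 9.09, 9.42, 6.63 and 8.89 CPM at day 0, then 6.41, 7.59, 8.65, 14.3 and 16.6 CPM at day 1 and 8.14, 22.6, 12.9, 6.93 and 15.3 CPM at day 3. Replicates 4 and 5 of day 1 and replicates 2, 3 and 5 of day 3 stood above every day 0 library, and the remaining libraries lay within or below the day 0 range. The log2 fold change was 0.33 ± 0.35 at day 1 (adjusted p = 0.469) and 0.63 ± 0.35 at day 3 (adjusted p = 0.18).

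Stat2, the STAT of the complex that binds the ISRE, was the steadiest member. It stood at 16.4, 15.6, 14.5 and 19.1 CPM at day 0, at 15.1, 18.6, 17.9, 19.8 and 21.2 CPM at day 1 and at 17.1, 20.7, 22.0, 18.2 and 18.2 CPM at day 3. The days overlapped, with 14.5 CPM as the lowest and 22.0 CPM as the highest value of all 14 libraries. Its log2 fold change was 0.18 ± 0.14 at day 1 (adjusted p = 0.321) and 0.23 ± 0.14 at day 3 (adjusted p = 0.212).

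Isg15, which is both conjugated to proteins and secreted, had the largest day 1 change of the 9 members. It stood at 1.55, 3.41, 1.77 and 1.63 CPM at day 0, from 27 to 58 reads. At day 1 it stood at 3.07, 4.18, 5.86, 6.69 and 17.8 CPM, and at day 3 at 1.73, 7.43, 3.76, 2.42 and 4.70 CPM. All day 1 libraries but replicate 1 exceeded the highest day 0 library, whereas day 3 overlapped with day 0 in replicates 1 and 4. Isg15 rose by 1.83 ± 0.54 on the log2 scale at day 1 (3.56-fold, adjusted p = 0.0149), and stood 0.93 ± 0.53 above day 0 at day 3 (adjusted p = 0.186). The day 1 value was 1.24 without replicate 5 (adjusted p = 0.045) and remained called with each other library left out.

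Usp18, the ISG15 protease, was counted with few reads, between 12 and 54 in each library. Its level was 2.13, 1.35, 1.83 and 2.12 CPM at day 0, 1.35, 1.41, 1.16, 2.57 and 4.34 CPM at day 1 and 0.662, 2.93, 1.49, 0.807 and 2.28 CPM at day 3. The days overlapped, with replicate 5 highest at day 1 and replicate 2 highest at day 3, as for several other members. The log2 fold change was 0.21 ± 0.48 at day 1 (adjusted p = 0.746) and -0.19 ± 0.48 at day 3 (adjusted p = 0.785).

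None of the 3 Ifit genes passed the test in the comparison of whole days. Ifit1, which binds RNA that lacks the cap methylation of host messages, stood at 2.82, 3.06, 2.15 and 2.6 CPM at day 0, at 1.94, 3.04, 5.04, 5.43 and 11.3 CPM at day 1 and at 1.99, 7.15, 5.05, 3.09 and 2.86 CPM at day 3. The 3 1-digit libraries of day 1 all exceeded day 0, and the 3-digit ones did not. Its log2 fold change was 1.00 ± 0.47 at day 1 (adjusted p = 0.099), which became 1.19 with an adjusted p of 0.0446 without day 1 replicate 1, and 0.60 ± 0.47 at day 3 (adjusted p = 0.333). Ifit2, which can promote cell death, stood at 14.7, 15.9, 17.2 and 15.1 CPM at day 0, at 16.3, 20.3, 15.0, 22.3 and 31.9 CPM at day 1 and at 11.3, 26.9, 22.7, 19.0 and 16.3 CPM at day 3. Its days overlapped, with log2 fold changes of 0.43 ± 0.25 (adjusted p = 0.179) and 0.29 ± 0.25 (adjusted p = 0.375).

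Ifit3 stood at 7.65, 9.83, 7.96 and 7.14 CPM at day 0. It stood at 4.42, 6.36, 8.59, 18.1 and 21.9 CPM at day 1 and at 3.41, 15.0, 9.46, 4.64 and 6.17 CPM at day 3. Libraries of both later days lay on either side of the day 0 range, and the log2 fold change was 0.54 ± 0.48 at day 1 (adjusted p = 0.375) and -0.07 ± 0.48 at day 3 (adjusted p = 0.921). Ifit3 has a near-identical copy, Ifit3b (chr19:34607970-34613401, plus strand), whose coding sequence shares 99.1% of its bases, and 51.2% of the 50-base windows of the Ifit3 transcript also occur in Ifit3b. Because the counts hold only reads that map to 1 place, reads from the shared stretches were lost from both and the values of Ifit3 are uncertain. The corresponding share of windows was 7.13% for Ifit1, 3.96% for Isg15 and 0% for the other members.

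**Figure D2:**
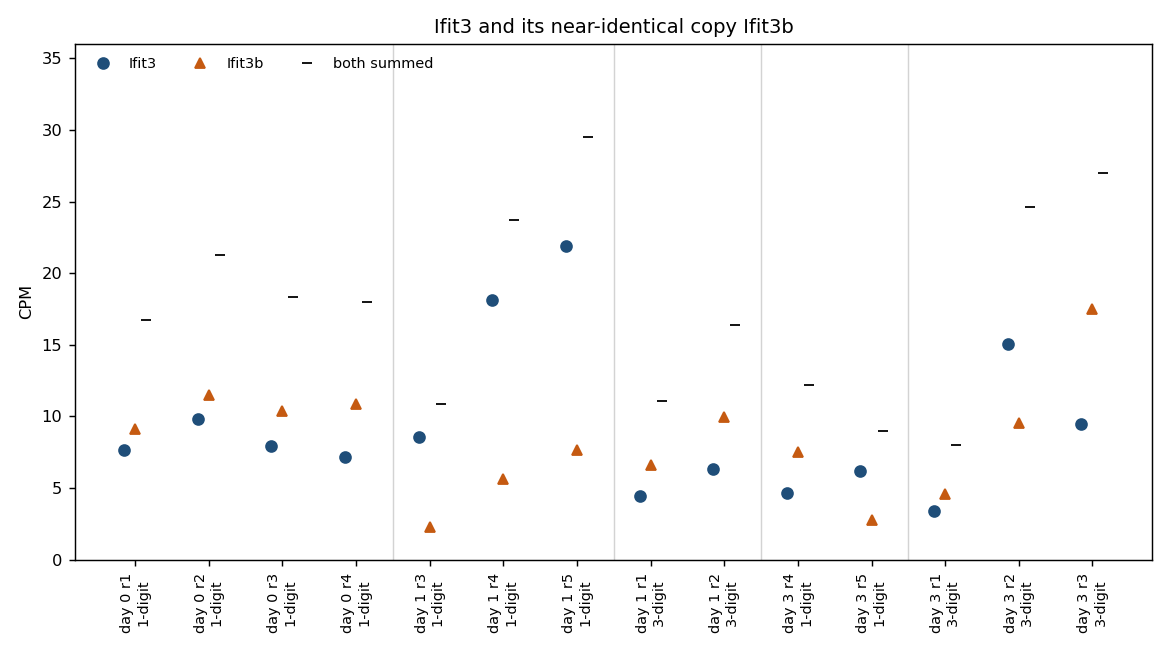
CPM of Ifit3, of its near-identical copy Ifit3b and of both summed in each library, ordered by day and number format (r, replicate; linear axis from 0). In the 1-digit libraries of day 1 Ifit3 holds between 74.1% and 79.2% of the summed reads, against 39.6% to 46.1% at day 0.

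The reads were split differently between Ifit3 and Ifit3b in different libraries. Of the reads of both genes, Ifit3 held 45.7%, 46.1%, 43.4% and 39.6% at day 0 and 79.2%, 76.4% and 74.1% in the 1-digit replicates 3, 4 and 5 of day 1. It held 40% and 38.9% in the 3-digit replicates 1 and 2 of day 1, and 42.7%, 61.1%, 35.0%, 38.1% and 68.9% in replicates 1 to 5 of day 3. The 1-digit libraries of day 1 thus stood apart from day 0 and from the 3-digit libraries of the same day. With the reads of both genes summed, an alternative chosen after seeing the data, the log2 fold change was -0.03 ± 0.38 at day 1 (adjusted p = 0.961) and -0.20 ± 0.38 at day 3 (adjusted p = 0.705). Each call of Ifit3 given below for a number format was lost in the sum.

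Rsad2, which encodes viperin, separated by number format at both days. It stood at 15.1, 19.8, 18.1 and 15.2 CPM at day 0. At day 1 it was 7.81 and 7.54 CPM in the 3-digit replicates 1 and 2 and 31.3, 37.3 and 71.3 CPM in the 1-digit replicates 3, 4 and 5. At day 3 it was 13.8, 13.6 and 10.8 CPM in the 3-digit replicates 1, 2 and 3 and 47.3 and 88.7 CPM in the 1-digit replicates 4 and 5. Every one of the 5 3-digit libraries lay below each day 0 library, and every one of the 5 1-digit libraries of days 1 and 3 lay above it. This order, noticed in the values of Rsad2, held for 3 of the 14300 genes tested (0.021%), Rsad2, Col20a1 and Alb. Col20a1 stood at most at 3.82 CPM in 3-digit libraries, between 3.93 and 5.87 CPM at day 0 and at least at 5.98 CPM in the 1-digit libraries of the later days, and Alb at 3.39, between 3.45 and 6.32 and at 10.4 CPM.

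**Figure D3:**
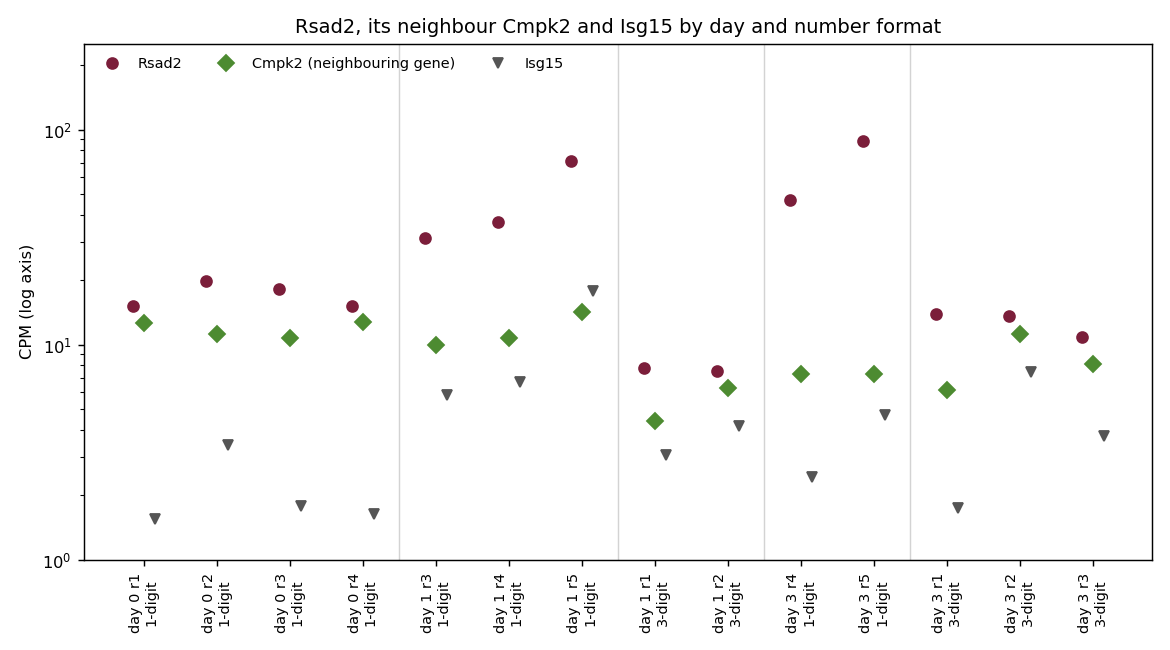
CPM (log axis) of Rsad2, of its neighbouring gene Cmpk2 and of Isg15 in each library, ordered by day and number format (r, replicate). Rsad2 lies between 7.54 and 13.8 CPM in the 3-digit libraries and between 31.3 and 88.7 CPM in the 1-digit libraries of days 1 and 3, while Cmpk2 stays between 4.42 and 14.2 CPM throughout.

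Over whole days the opposite shifts of Rsad2 left a wide error. Its log2 fold change was 0.86 ± 0.70 at day 1 (adjusted p = 0.335) and 1.03 ± 0.70 at day 3 (adjusted p = 0.271). Within the formats it rose by 1.45 ± 0.27 in the 1-digit libraries of day 1 (adjusted p = 0.000476) and by 1.99 ± 0.29 in those of day 3 (adjusted p = 0.000135). In the 3-digit libraries it fell by 1.15 on the log2 scale at day 1 (SE 0.33, adjusted p = 0.0131) and stood at -0.42 ± 0.27 at day 3 (adjusted p = 0.261). The day 1 fall was lost without replicate 1 (adjusted p = 0.0651) or replicate 2 (adjusted p = 0.0817), each of which leaves a single 3-digit library assumed to vary like the others. With the format as a term, the rise of Rsad2 was 1.41 on day 1 (adjusted p = 0.000419) and 2.05 on day 3 (adjusted p = 0.000116).

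Between the formats Rsad2 differed by -2.6 ± 0.36 at day 1 (3-digit minus 1-digit, 6.06-fold lower, adjusted p = 0.000369) and by -2.41 ± 0.32 at day 3 (5.32-fold lower, adjusted p = 0.00163). Both calls held with each library left out, but that of day 3 was lost with a replicate block. Day 1 and day 3 differed in this format difference by -0.19 ± 0.46 (adjusted p = 0.812). Cmpk2, the neighbour of Rsad2 on the opposite strand (chr12:26469204-26479837, plus strand), stood at 12.7, 11.2, 10.7 and 12.8 CPM at day 0, at 4.42, 6.31, 9.95, 10.7 and 14.2 CPM at day 1 and at 6.16, 11.3, 8.17, 7.26 and 7.27 CPM at day 3. At day 1 Cmpk2 was lower in 3-digit libraries (-1.11 ± 0.27, adjusted p = 0.00692), and its 1-digit and 3-digit libraries of day 3 overlapped.

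**Figure D4:**
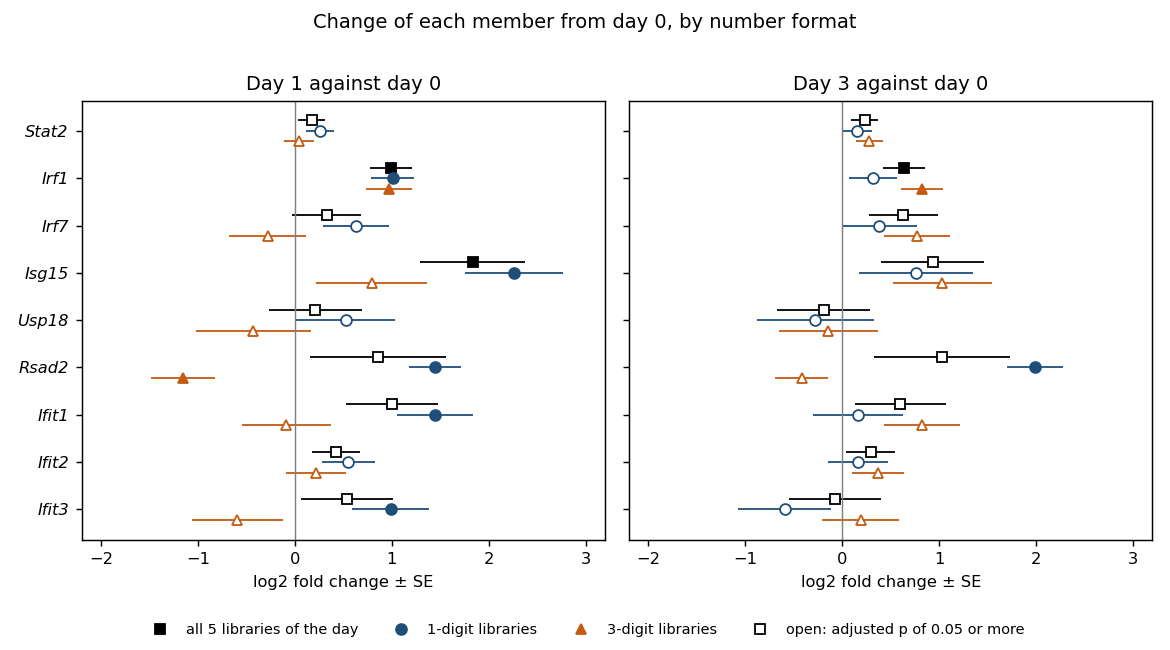
Log2 fold change from day 0 with its SE for each member at day 1 (left) and day 3 (right), for all libraries of the day (squares), its 1-digit libraries (circles) and its 3-digit libraries (triangles), with open symbols where the adjusted p-value is 0.05 or more. At day 1 the 1-digit values lie to the right of the 3-digit values for all 9 genes (for Irf1 the order turned with total counts in place of TMM), and at day 3 this holds for Rsad2 alone.

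Counted together, few of the members passed the test over whole days. At day 1, 2 of the 9 members were called, Isg15 and Irf1, both higher, while 42.1% of all genes were called, 23.3% higher and 18.7% lower. All 9 values were above 0, and the median log2 fold change of the members was 0.54 beside 0.01 over all genes. This did not hold in each format, since the median against day 0 was 0.99 in 1-digit libraries, with 9 of 9 values above 0, and -0.09 in 3-digit libraries, with 4 of 9 above 0. At day 3, 1 of the 9 was called, Irf1, while 33.3% of all genes were called, 19.5% higher and 13.8% lower. The median of the members was 0.60 beside 0.05 over all genes, and 0.17 in 1-digit and 0.37 in 3-digit libraries, with values above 0 for 7 of the 9 over the whole day, and the value of Ifit3 turned from negative to positive when total counts replaced TMM. From day 1 to day 3 edgeR called 0 of the 9 (0 at an unadjusted p under 0.05, and 0 by DESeq2), against 15.9% of all genes, with a median of -0.35. In each of these comparisons the share of members called was below the share of all genes called, and the share called higher at day 1 was close to that of all genes.

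The number formats were also set against day 0 one at a time. In the 1-digit libraries of day 1, 5 of the 9 members were called higher than day 0, Isg15 (2.26 ± 0.51, adjusted p = 0.00199), Ifit1 (1.44 ± 0.39, adjusted p = 0.00654), Ifit3 (0.99 ± 0.40, adjusted p = 0.0463), Irf1 and Rsad2, while 58.5% of all genes were called, 28.9% higher and 29.6% lower. The whole-day comparison of day 1 had called fewer members and also a smaller share of all genes. Without replicate 5, 3 were called, Ifit1 and Ifit3 falling out, and Ifit3 was also lost without any one of 9 other libraries. In the 3-digit libraries of day 1, 2 were called, Irf1 higher and Rsad2 lower, against 41.6% of all genes. In the 1-digit libraries of day 3, 1 was called, Rsad2, against 53.7%, and in the 3-digit libraries of day 3, 1 was called, Irf1, against 32.4%.

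Set against each other, all 9 members had lower values at day 1 in 3-digit than in 1-digit libraries, although the small difference of Irf1 turned positive when total counts replaced TMM. The median difference was -0.95 beside 0.03 over all genes. Of these, 3 were called, Rsad2, Ifit3 (-1.58 ± 0.51, adjusted p = 0.0279) and Ifit1 (-1.53 ± 0.49, adjusted p = 0.028), against 35% of all genes, 18.6% higher and 16.4% lower. The calls of Ifit1 and Ifit3 were lost without day 1 replicate 1, 2 or 5, and that of Ifit3 also without replicate 4, whereas Rsad2 held. Isg15 differed by -1.47 ± 0.62 (adjusted p = 0.0796). At day 3 the sign turned for 8 of the 9 members, with a median difference of 0.27, and Rsad2 alone was called, against 18.5% of all genes.

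The change of the format difference from day 1 to day 3 was called for 2 members, Ifit1 (-2.19 ± 0.69, adjusted p = 0.0427) and Ifit3 (-2.36 ± 0.71, adjusted p = 0.0364), against 17.6% of all genes. Of the 14 libraries left out in turn, 12 lowered the number of members called to 0 or 1, and both calls were lost without any one of day 1 replicates 1, 2 and 5 and day 3 replicates 2, 3, 4 and 5. From day 1 to day 3 within the 1-digit libraries, Ifit3 alone fell (-1.58 ± 0.51, adjusted p = 0.0318), against 32% of all genes, a call lost without replicate 4 or 5 of either day. DESeq2 called 4 members there, Isg15, Ifit1, Ifit3 and Irf1, all lower at day 3. Within the 3-digit libraries edgeR called 0 of the 9 from day 1 to day 3 (2 at an unadjusted p under 0.05, and 0 by DESeq2), against 13.9% of all genes.

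The members tended to be high or low in the same libraries of a day. Among the day 1 libraries, replicate 5 was highest for 8 of the 9 members and replicate 2 for Irf1, and replicate 1 was lowest for 6. Among the day 3 libraries, replicate 2 was highest for 6 of the 9 and replicate 1 lowest for 6. The mean of the 9 members' log2 CPM, each standardised over the 14 libraries, lay between -0.73 and -0.38 at day 0, between -0.84 in replicate 1 and 1.74 in replicate 5 at day 1, and between -0.98 in replicate 1 and 1.01 in replicate 2 at day 3. The spread within each later day was therefore wider than that at day 0.

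Across the 14 libraries, which share day and number format, Pearson's r of log2 CPM was 0.878 between Isg15 and Ifit1, 0.863 between Ifit1 and Ifit3 and 0.832 between Ifit1 and Ifit2. Rsad2 was the least like the others, with r from -0.00219 with Irf1 to 0.454 with Isg15. The 10 genes outside the list whose profile was most like the mean of the members, among 13317 genes with a mean of at least 1 CPM, were Gbp3 (r = 0.921), Xaf1 (0.921), Rtp4 (0.904), C1s1 (0.858), Ifi204 (0.857), Plk2 (0.849), Neurl3 (0.842), Cxcl10 (0.834), Mir6236 (0.834) and Ercc6 (0.828). These correlations are descriptions over 14 libraries of 3 days.

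**Figure D5:**
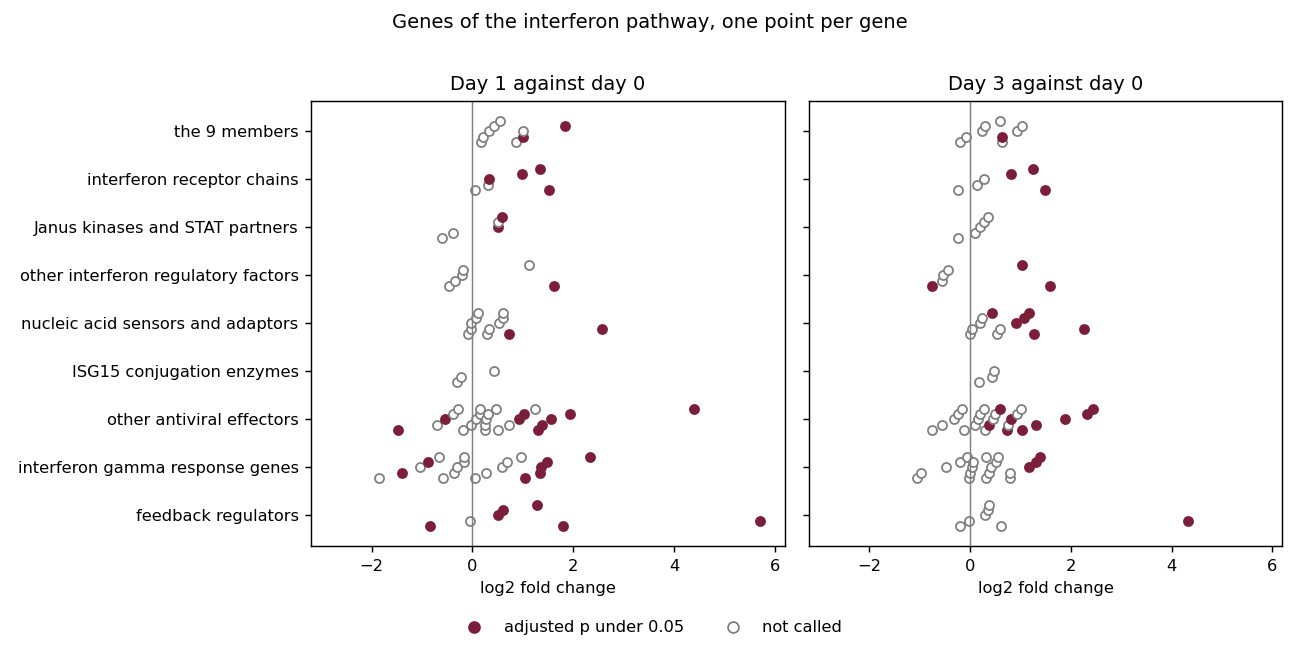
Log2 fold change at day 1 (left) and day 3 (right) against day 0 of the 9 members and of every tested gene of 8 lists of the interferon pathway, 1 point per gene, filled where the adjusted p-value is under 0.05. Socs3 (5.71 at day 1) and Oasl1 (4.40 at day 1) lie farthest to the right.

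Transcripts of the interferons themselves were at or near 0. Of the 10 ligand genes searched, 8 had no read in any of the 14 libraries, and Ifnb1, the gene of IFN-β, and Ifng, the gene of IFN-γ, had 1 read each. A count of 0 allows up to 3 counts, between 0.136 and 0.241 CPM depending on the library, an interval that covers counting error only. The receptor chains were expressed throughout. At day 1, when 23.3% of all genes were called higher, 4 of the 6 chains rose and none fell, Ifngr2 by 1.53 ± 0.22 and Ifngr1 by 1.35 ± 0.14, which form the IFN-γ receptor, Ifnlr1 of the type III receptor by 0.98 ± 0.27 and Ifnar1 of the type I receptor by 0.33 ± 0.13 (adjusted p = 0.046). At day 3, when 19.5% of all genes were called higher, 3 of the 6 rose, Ifngr1 by 1.49 ± 0.14, Ifngr2 by 1.25 ± 0.22 and Ifnlr1 by 0.81 ± 0.27.

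Of the 5 kinases and partners of STAT2, Jak2 (0.59 ± 0.21, adjusted p = 0.0394) and Jak1 (0.51 ± 0.14, adjusted p = 0.0102) rose at day 1, when 23.3% of all genes were called higher. At day 3 edgeR called 0 of the 5 (0 at an unadjusted p under 0.05, and 0 by DESeq2), against 33.3% of all genes.

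Among 6 other interferon regulatory factors, Irf8, a factor of myeloid cells, rose on both days, by 1.63 ± 0.18 and 1.03 ± 0.18 (adjusted p = 0.001). Among 12 tested sensors and adaptors of the nucleic acid response, 2 rose at day 1 and 6 at day 3, and none fell, beside 23.3% and 19.5% of all genes called higher. Without a filter on low counts, 3 of them were called at day 3. Tmem173, the gene of STING, rose by 2.56 ± 0.34 and 2.26 ± 0.34, and Ddx58, the gene of the RNA sensor RIG-I, by 0.72 ± 0.15 and 1.17 ± 0.16, while Ikbke rose at day 3 by 1.28 ± 0.31 (adjusted p = 0.00634). Mavs, the adaptor of RIG-I, exceeded its 1-digit level by 2.27 ± 0.18 in 3-digit libraries at day 1, with 146 to 170 CPM against 28.6 to 37.8 CPM, and 83.2 to 93.6 CPM at day 0. The 3 enzymes that conjugate ISG15 had 0 calls by edgeR at either day (0 at an unadjusted p under 0.05, and 0 by DESeq2), with median log2 fold changes of -0.22 and 0.43.

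Of 25 other antiviral effectors tested, 7 rose and 2 fell at day 1, and 9 rose and none fell at day 3. Of all genes 23.3% were called higher and 18.7% lower at day 1, a share of rises close to that of the effectors, and 19.5% higher and 13.8% lower at day 3. Oasl1, a regulator of Irf7 translation, rose on both days, by 4.40 ± 0.87 (adjusted p = 0.00158) and 2.43 ± 0.82 (adjusted p = 0.0339). At day 1 it stood at 42.3 to 78.6 CPM where the number had 1 digit and at 3.45 to 6.04 CPM where it had 3, against 1.07 to 2.48 CPM at day 0. Ifitm3, which blocks viral entry, rose by 1.94 ± 0.32 and 1.31 ± 0.31, Xaf1 rose at day 1 by 1.55 ± 0.52, and Lgals3bp and Isg20 rose on both days, by 1.39 ± 0.22 and 1.30 ± 0.45 at day 1 and by 2.32 ± 0.23 and 1.88 ± 0.45 at day 3. Samd9l fell by 1.48 at day 1 (SE 0.30, adjusted p = 0.00182). Between the formats at day 1, 4 effectors were lower in the 3-digit libraries, Oasl1, Mx2, Xaf1 and Cmpk2, and 1 was higher, beside 16.4% of all genes lower and 18.6% higher.

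Of 20 IFN-γ response genes tested, 5 rose and 2 fell at day 1 and 3 rose at day 3. The share that rose at day 1 was close to the 23.3% of all genes called higher, and that at day 3 was below the 19.5% of all genes. Cxcl10, a chemokine, rose by 2.34 ± 0.66 at day 1 (adjusted p = 0.0117), from a mean of 1.51 CPM at day 0 to between 6.86 and 14.5 CPM in 1-digit libraries and between 2.21 and 2.36 CPM in 3-digit ones. The antigen-processing genes Tap1 and Psmb8 rose by 1.48 ± 0.26 and 1.36 ± 0.20 at day 1 and by 1.17 ± 0.25 and 1.38 ± 0.20 at day 3, and Tgtp2 fell by 1.39 at day 1. In the 3-digit libraries of day 1, 7 genes of this list were lower and 1 was higher than in the 1-digit ones, beside 16.4% of all genes lower and 18.6% higher. Of 7 feedback regulators, 5 rose and 1 fell at day 1 and 1 rose at day 3, beside 23.3% and 19.5% of all genes called higher. More of the 7 were called at day 3 when total counts replaced TMM. Socs3, an inhibitor of JAK signalling, rose on both days, by 5.71 ± 0.47 and 4.33 ± 0.45, from a mean of 1.74 to 91.3 and 35.3 CPM, and Ptpn2, a phosphatase of JAK and STAT proteins, rose by 1.27 ± 0.20 at day 1. Between the formats at day 1, 6 of these 7 genes were called, 5 lower and 1 higher in 3-digit libraries, among them Socs3 (-1.12 ± 0.39, adjusted p = 0.0408) and Ptpn2 (-0.86 ± 0.15, adjusted p = 0.00111). In the same comparison 2 of the 6 receptor chains were higher and none lower, and 2 were higher and 1 lower of the 5 kinases and partners of STAT2, of the 6 other interferon regulatory factors and of the 12 sensors and adaptors. Of all genes 35% were called there.

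Markers of other cells moved with the days and the formats. Neutrophil markers, of which 6 of 7 were listed, summed to 1.33 to 2.07 CPM at day 0 and to 19.3 to 408 CPM afterwards, with 5 of 5 tested markers higher at each day. Monocyte and macrophage markers summed to 121 to 171 CPM at day 0, to 143 to 207 CPM (1-digit) and 315 to 344 CPM (3-digit) at day 1, and to 166 to 224 CPM at day 3, with Cd68, Cd14 and Itgam higher and Csf1r lower at both days. Markers of kidney tubule and podocyte summed to 16196 to 18913 CPM at day 0, to 10888 to 13084 CPM (1-digit) and 4556 to 6137 CPM (3-digit) at day 1, and to 3093 to 3722 CPM (1-digit) and 5197 to 11053 CPM (3-digit) at day 3. The order of the formats in the sum of the tubule markers turned between the days. Endothelial markers summed to 208 to 273 CPM at day 0, to 303 to 404 CPM (1-digit) and 254 to 310 CPM (3-digit) at day 1, and to 327 to 544 CPM (1-digit) and 136 to 232 CPM (3-digit) at day 3. Between the formats these sums overlapped at day 1 and did not at day 3. The 5 endothelial markers did not move together at day 1, when Tek stood at 6.54 to 10.6 CPM (1-digit) and 19.2 to 28.6 CPM (3-digit) and Cdh5 was lower in 3-digit libraries (-1.14 ± 0.31, adjusted p = 0.0131). Markers of plasmacytoid dendritic cells, a main source of IFN-α, were counted with few reads, with sums of 0.396 to 2.14 CPM, and 2 of the 4 plasmacytoid markers were at 0 in both 1-digit libraries of day 3. The 10 markers of T and NK cells summed to 2.24 to 3.51 CPM at day 0, to 1.31 to 2.49 CPM (1-digit) and 0.593 to 1.04 CPM (3-digit) at day 1, and to 0.605 to 1.18 CPM (1-digit) and 0.254 to 1.63 CPM (3-digit) at day 3. Cd8a, the one of them with enough reads to test, fell by 2.23 at day 1 (adjusted p = 0.00753) and by 2.93 at day 3 (adjusted p = 0.0028). At day 1 Krt5 and Upk1b, markers of the urothelium, were higher in 3-digit libraries, where the summed urothelial markers reached 12.7 and 91.7 CPM against 4.84 to 7.64 CPM in the 1-digit libraries and 1.82 to 45.4 CPM at day 0. The part of these cells in the values of the members was not tested.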

How the data were processed

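Bulk kidney RNA was sequenced from 14 libraries on Illumina TruSeq preparations. The deposited files hold raw read counts per gene, for which the submitters' processing notes name Trimmomatic, STAR and the mm10 build, with versions not given in the sources used here. STAR counts reads that map to 1 place. The strand-specific column 4 was used, which held 98.5% to 98.7% of the reads assigned to a strand, and the 4 entries that name no gene, 29.0% to 38.3% of the reads, were left out.

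Genes were filtered with filterByExpr, scaled by TMM and tested with edgeR 4.0.16 (limma 3.58.1, R 4.3.3), using its quasi-likelihood test with Benjamini-Hochberg adjustment over 14300 genes and a threshold of 0.05. Whole days were fitted as 3 groups over all 14 libraries, and the number formats as 5 groups. Log2 CPM used a prior count of 2. The numbers occur only in the names of the files, so the format is a property of the names and not a stated batch. Libraries of a group differed by more than counting error gives (chi-square of 5.94 to 241 for each degree of freedom). This does not tell separate mice from repeat preparations of the same mouse, and each library was counted on its own. The members and gene lists were chosen with earlier results of these data known. Of each list, up to 4 genes with the largest absolute log2 fold change were named among those with an adjusted p under 0.05 and a mean of at least 1 CPM, or else the 2 with the highest mean, and the 10 genes most like the members were ranked by Pearson's r. Genes named outside this rule are given as needed beside a member or chosen after their values were seen. Alternatives were unstranded counts, RLE size factors, total counts, no filter or at least 10 counts in every library, DESeq2 1.42.0, a replicate block, a term for the number format, only the days compared, a minimum absolute log2 fold change of 1 and each library left out. The sum of Ifit3 and Ifit3b was added after seeing the data. The scripts were tested on simulated data. Promoter windows were taken from RefSeq (GRCm38.p6) and gene positions from GENCODE M21. Some genes are not reported here.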

Additional observations from a re-analysis of the deposited data

Results flagged for a closer look

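Of 27 groups of 4 or 5 libraries tested for a library that stands apart, 2 had one, where chance gives about 1 in 20, or 1.35 groups. Isg15 stood at a log2 CPM of 1.82 in day 0 replicate 2, against 0.74 to 0.92 in the other day 0 libraries. Irf7 stood at a log2 CPM of 2.76 in day 0 replicate 3, against 3.17 to 3.25 in the others.

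The difference between 3-digit and 1-digit libraries was not the same at day 1 and day 3 for 2 members by edgeR's quasi-likelihood test of the interaction. The difference at day 1 minus that at day 3 was -2.19 for Ifit1 (adjusted p = 0.0427) and -2.36 for Ifit3 (adjusted p = 0.0364). Leaving out 1 library lowered the number of members called here to 0 or 1 for 12 of the 14 libraries. With the reads of Ifit3 and Ifit3b summed it was -1.55 (adjusted p = 0.115).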

How the results depend on the processing

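Over 108 values of members and 2334 alternative fits, 2176 kept their direction and side of the threshold, 73 lost a call, 27 gained one, 58 uncalled values changed sign and 0 called values did. A minimum absolute log2 fold change of 1 left 1 member called at day 1, 0 at day 3, 1 in the 3-digit libraries of day 1 and 0 in those of day 3. Without a filter on low counts 0 were called at day 3. From day 1 to day 3 in the 1-digit libraries 2 members were called with RLE size factors, 4 with DESeq2, and 0 with total counts or with Ifit3 and Ifit3b summed, which also left 1 in the comparison of the format difference between days. Total counts left 1 between the formats at day 1 and 0 in that comparison between days, and moved the median log2 fold change of all genes from 0.05 to 0.19 at day 3. Of 216 settings for the counts of the pathway lists, 27 moved by over 1.5 times, among them the 6 sensors called at day 3, which were 3 without a filter, and the 1 feedback regulator called at day 3, which became 4 with total counts. The cause was not tested. Usp18, Isg15 and Ifit1 had as few as 12, 27 and 34 reads in a library, and the effect of this was not tested.

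Whether the replicate numbers pair the libraries was not settled. Deviations from the mean of the day correlated over 0.1 in 4 of 13 same-numbered pairs (-0.175 to 0.261). Pairs with different replicate numbers spanned -0.499 to 0.534, so these correlations cannot decide it. With a replicate block the members called were 0 at day 3, 3 in the 1-digit libraries of day 1, 2 from day 1 to day 3 in the 1-digit and 1 in the 3-digit libraries, 1 between the formats at day 1, 0 between them at day 3, where the call of Rsad2 was lost (-1.92, adjusted p = 0.134), and 1 in their change between days.

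When each library was left out, the members called ranged from 2 to 3 at day 1, 0 to 1 at day 3, and 0 to 0 from day 1 to day 3. They ranged from 3 to 6 and 0 to 2 in the 1-digit and 3-digit libraries of day 1, and from 1 to 1 and 0 to 3 in those of day 3. From day 1 to day 3 they ranged from 0 to 3 in the 1-digit and 0 to 2 in the 3-digit libraries. Between the formats they ranged from 1 to 4 at day 1 and 1 to 2 at day 3, and in the change between days from 0 to 3. Where a format kept a single library on a day, that library was assumed to vary like the others.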
